A study of Mus musculus with 6 samples.

Results

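The cells described here were selected by their UMIs for 4 genes attributed to the inner bulge, Cryab, Cldn3, Wfdc3 and Bcl2l15, and numbered 182 of 55177 barcodes kept from mouse dorsal skin. A cell was taken when it held at least 4 UMIs (unique molecular identifiers, each standing for 1 captured transcript) over these genes, making at least 5 per 10000 of its UMIs. It could hold no more than 2 UMIs over Pinlyp, Wfdc18 and Serpina11, genes of the companion layer, and no more than 2 over Krt79, Defb6 and Cst6, genes of the upper hair follicle (HF). Under 5 UMIs of the pigment cell genes Dct, Pmel and Mlana were allowed. These values chose the cells, so the levels of the 4 genes are a description and carry no test.

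The study followed HF regeneration after hair removal. All cells came from wildtype male mice of the FVB strain aged p55-57, whose back skin was shaved and waxed, and skin was taken from 0 h over 4 h and 16 h to 2 d, then 4 d, then 6 d after depilation. Each time point was 1 library made from the cells of 2 mice mixed in equal numbers, so the mice cannot be told apart and a pair of time points cannot be compared by a test. The libraries held 73894299, 72634390, 112370376, 99686327, 95678280 and 88632160 UMIs in this order, and 6925, 7663, 8729, 9534, 12410 and 9916 barcodes with 500 to 7000 detected genes and at most 10% mitochondrial UMIs were kept. Of the kept barcode sequences 367 occurred in 2 or more libraries, 0.670% of 54809, and none of these repeats was between gated cells of 2 libraries.

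The inner bulge is the layer of Krt6-positive cells that lies between the outer bulge stem cells and the club hair of the resting follicle. It descends from earlier bulge cells, no longer acts as a stem cell pool, anchors the old hair and secretes signals such as Fgf18 and Bmp6 that keep the outer bulge at rest. The gate genes have unlike roles. Cryab encodes a small heat shock protein, Cldn3 a claudin of tight junctions, Wfdc3 a whey acidic protein domain protein of the protease inhibitor type, and Bcl2l15 a Bcl-2 family member. Krt75, a keratin of the companion layer and neighbouring inner layers, and Spink5, which encodes an inhibitor of kallikrein proteases, were named as markers of the label but did not enter the gate, and so could serve as a check of it.

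RefSeq promoter sequences of Cldn3, Wfdc3 and Bcl2l15 were examined, and that of Cryab was not analysed here. Those of Wfdc3 and Bcl2l15 are shown because these 2 genes marked separate sets of gated cells, as described further on. Each run of 300 bases covers 250 bases before the start site to 50 after it, in build GRCm38.p6, on the minus strand at chr2:164743218-164743517 for Wfdc3 and on the plus strand at chr3:103832446-103832745 for Bcl2l15. Capitals mark matches to GAANNTTC, the core of a heat shock element, which reads the same on both strands.
Wfdc3: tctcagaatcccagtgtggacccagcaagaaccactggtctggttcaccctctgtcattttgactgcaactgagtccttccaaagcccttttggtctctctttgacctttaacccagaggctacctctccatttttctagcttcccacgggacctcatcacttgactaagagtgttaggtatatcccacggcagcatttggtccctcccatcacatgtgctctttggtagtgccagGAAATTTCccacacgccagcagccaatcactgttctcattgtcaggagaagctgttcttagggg
Bcl2l15: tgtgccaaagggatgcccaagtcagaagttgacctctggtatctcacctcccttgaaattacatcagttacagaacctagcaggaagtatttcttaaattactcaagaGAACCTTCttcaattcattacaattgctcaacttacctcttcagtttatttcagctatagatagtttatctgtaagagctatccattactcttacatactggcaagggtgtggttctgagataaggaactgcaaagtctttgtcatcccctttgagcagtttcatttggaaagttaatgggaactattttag
Each held 1 match, a motif present in 7.86% of 32851 promoters of this length. The AP-1 motif TGANTCA, present in 7.81% of them and also the same on both strands, was not found in these 2 promoters or in that of Cldn3, and the Cldn3 promoter held no match to GAANNTTC either.

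Gated cells were found at every time point but in very unequal numbers. There were 28 in the 0 h library, 45 in that of 4 h and 66 in that of 16 h. The later libraries held 1 cell (2 d), 9 cells (4 d) and 33 cells (6 d). As a share of kept barcodes the 0 h library gave 0.404% (exact Clopper-Pearson 95% interval 0.269 to 0.584), the 4 h library 0.587% (0.429 to 0.785) and the 16 h library 0.756% (0.585 to 0.961). The share was 0.0105% (0.000266 to 0.0584) in the 2 d library, 0.0725% (0.0332 to 0.138) in the 4 d library and 0.333% (0.229 to 0.467) in the 6 d library. The intervals of 2 d and 4 d lay below those of the other 4 libraries, which cover counting error only, in libraries that each stand for 1 sample. Under every form of the gate tried, 2 d and 4 d stayed lowest, but the size of the gap depended on the gate. Without its limit on Krt79, Defb6 and Cst6, 2 d gave 0.147% and 4 d gave 0.604%, beside 0.722% at 0 h. With barcodes thinned to 2000 UMIs and 1 gate UMI as the limit, 2 d and 4 d gave 2.16% and 2.17%, beside 2.45% at 6 d. Per 1000 cells of an outer bulge gate (Cd34, Krt24, Postn and Lgr5, built in the same way), there were 55.1, 139, 88.2, 0.840, 11.9 and 52.1 gated cells. That gate itself held 508, 323, 748, 1191, 758 and 633 cells, so these ratios move with the counts of both gates.

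Depth was similar in outer bulge cells and higher in suprabasal cells of the upper follicle (Krt79, Defb6 and Cst6 gate). Leaving out 2 d, the median UMIs of gated cells were, in order of time, 5525, 5316, 7247, 5748 and 4858, and those of outer bulge cells 6169, 5478, 8522, 5696 and 5360. Suprabasal cells had medians of 12046 UMIs at 0 h, 12255 at 4 h, 13324 at 16 h and 8054 at 6 d. Together the gated cells held 1188602 UMIs, from 526232 at 16 h down to 46378 at 4 d and 7568 in the only cell of 2 d. Levels are therefore described for 0 h, 4 h, 16 h and 6 d, with counts for the others. They are given as CPM, the UMIs of a gene over all UMIs of the cells summed within a library on the usual scale, with exact Poisson 95% intervals that also cover counting error only. For a count of 0 these intervals reached 21.2 CPM at 0 h and 19.4 at 6 d, as for Bcl2l15, and 15.1 at 4 h, as for Cldn3. A count of 3 UMIs, used as a floor, equals 17.2 CPM at 0 h, 15.7 at 6 d and 12.3 at 4 h.

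The 4 gate genes contributed very differently. Cryab gave 1277 UMIs, 67.9% of those of the 4 genes, Bcl2l15 371 (19.7%), Wfdc3 165 (8.77%) and Cldn3 69 (3.67%). Cryab UMIs were the only gate UMIs in 83 cells, Bcl2l15 UMIs in 19 and Wfdc3 UMIs in 9. UMIs of 2 or more of the genes were found in 71 cells, and no cell held UMIs of all 4.

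Cryab was present throughout, with 574 CPM (467 to 698) at 0 h and 1743 CPM (1582 to 1917) at 4 h, and with 836 CPM (760 to 918) at 16 h and 1255 CPM (1101 to 1424) at 6 d. The 4 h level rested largely on 5 of 45 cells, which held 251 of its 425 Cryab UMIs and only 2 to 13 UMIs of the basal keratins Krt5, Krt14 and Krt15. Leaving out cells with over 20 Cryab UMIs gave 786 CPM at 4 h, 702 at 16 h and 1063 at 6 d. Wfdc3 stood at 540 CPM (436 to 660) at 0 h, 107 CPM (69.7 to 156) at 4 h, 20.9 CPM (10.4 to 37.4) at 16 h and 147 CPM (97.7 to 212) at 6 d. Cldn3 stood at 264 CPM at 0 h (193 to 352) and 68.2 at 6 d (36.3 to 117), with 8 UMIs in 6 of 66 cells at 16 h and no UMI at 4 h. Bcl2l15 showed the opposite distribution over time, with 394 CPM (319 to 481) at 4 h, 523 CPM (463 to 588) at 16 h and no UMI in any of the other 4 libraries.

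The gated cells were divided by these genes into sets, after their values were seen and in a fixed order, so that the sets exclude each other by construction. Cryab was shared, with UMIs in 39 of 58 Bcl2l15-positive and 30 of 39 Wfdc3-positive cells. Bcl2l15 occurred with Cldn3 in 5 cells and with Wfdc3 in none. A first set of 35 cells held at least 2 UMIs of Cldn3 and Wfdc3 together (Cldn3 or Wfdc3 cells). A second set of 54 cells held at least 2 UMIs of Bcl2l15 and fewer than 2 of Cldn3 and Wfdc3 (Bcl2l15 cells). The other 93 cells were taken in by Cryab (Cryab cells). Cldn3 or Wfdc3 cells made up 15 of 28 cells at 0 h, 5 of 45 at 4 h and 5 of 66 at 16 h. Later they made up none (2 d), 1 of 9 (4 d) and 9 of 33 (6 d). Bcl2l15 cells numbered 15 at 4 h and 39 at 16 h and were absent from the other 4 libraries, and Cryab cells numbered 13, 25, 22, 1, 8 and 24. Without 15 cells with more than 2 times the median UMIs of the gated cells in their library or with at least 3 UMIs of immune, fibroblast or endothelial genes, the sets held 32, 51 and 84 cells.

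**Figure D1:**
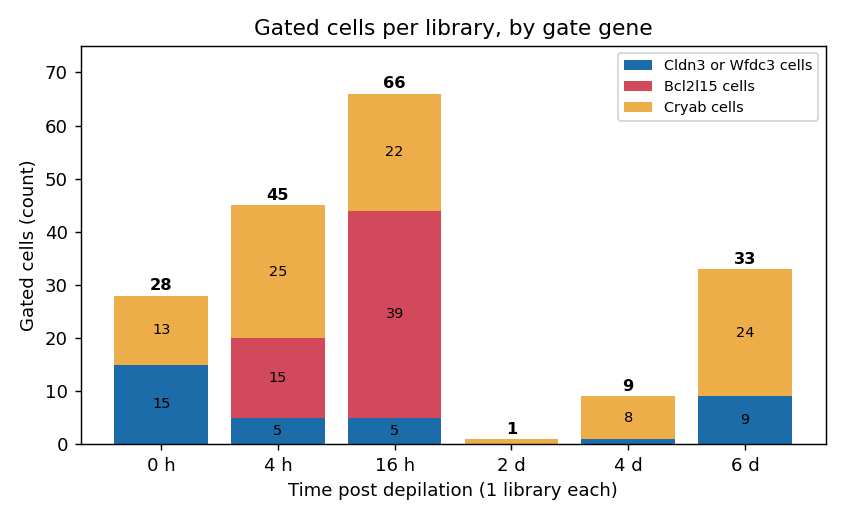
Gated cells in each library (y axis, count) at the 6 times post depilation (x axis), stacked by the gate gene that defined the set, with totals above the bars. Bcl2l15 cells occur at 4 h (15) and 16 h (39) only, and the totals fall to 1 at 2 d and 9 at 4 d.

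**Figure D2:**
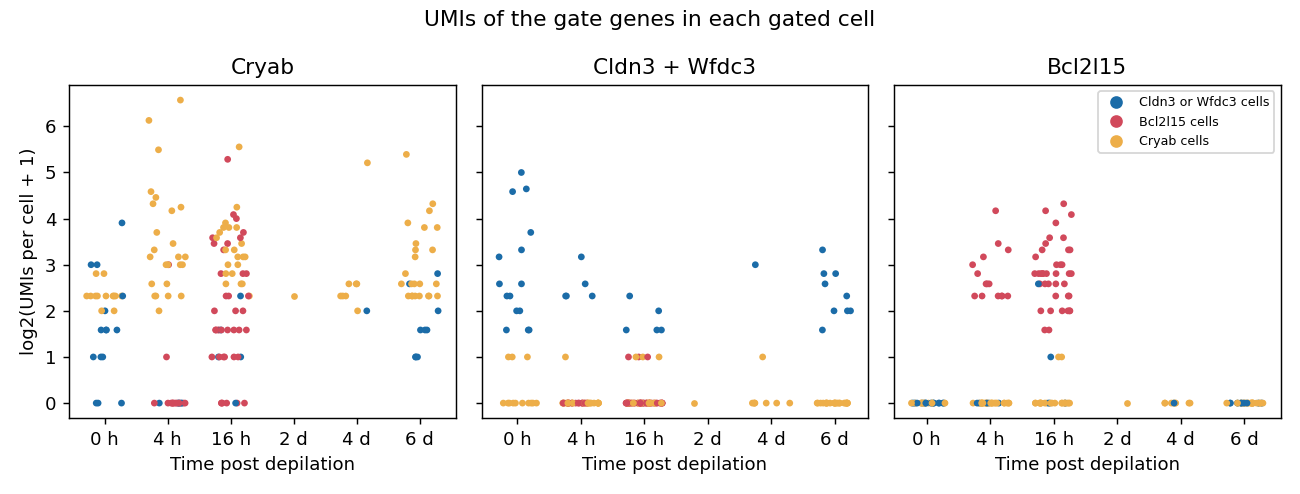
UMIs of the gate genes in every gated cell, as log2(UMIs + 1) on the y axis, for Cryab, for Cldn3 and Wfdc3 summed, and for Bcl2l15, by time post depilation on the x axis. Each point is 1 cell, spread sideways for visibility and coloured by set, and cells high in Bcl2l15 (4 h and 16 h) lie at or near 0 for Cldn3 and Wfdc3.

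The markers that were not used by the gate gave a split answer about the label. At least 2 UMIs of Krt75 and Spink5 together were found in 30 of 182 gated cells, or 16.5%. The 0 h library gave 7 of 28 (25.0%, exact Clopper-Pearson interval 10.7 to 44.9), the 4 h library 4 of 45 (8.89%, 2.48 to 21.2), the 16 h library 9 of 66 (13.6%, 6.43 to 24.3) and the 6 d library 9 of 33 (27.3%, 13.3 to 45.5). The same count in outer bulge cells, of similar depth, was 4.92% at 0 h, 2.17% at 4 h, 2.14% at 16 h and 1.11% at 6 d. In barcodes with at least 3 T cell UMIs, which should lack both genes and had median depths of 2805, 2317, 2387 and 2712 UMIs, it was 2.07%, 1.42%, 1.42% and 5.80%. The intervals of gated cells at 0 h, 16 h and 6 d lay above those of both other groups, while that of 4 h overlapped the outer bulge interval of 0.876 to 4.41. In suprabasal cells of the upper follicle, of higher depth and rich in Spink5, the share was 61.1% at 0 h, 43.4% at 4 h, 37.6% at 16 h and 28.1% at 6 d. It lay above the intervals of the gated cells at 0 h, 4 h and 16 h and within that of 6 d, so a count of these markers alone does not tell the gated cells from suprabasal cells.

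Krt75 and Spink5 were found chiefly in the Cldn3 or Wfdc3 cells, of which 18 of 35 reached 2 UMIs, against 7 of 54 Bcl2l15 cells and 5 of 93 Cryab cells. At 0 h, but not at 6 d, a Cldn3 UMI separated the gated cells further. All 5 Cldn3-positive cells at 0 h held 50 to 102 UMIs of Spink5, and all 6 at 6 d held 13 to 118. Krt75 reached 20 and 18 UMIs in 1 cell at these times. None of the 13 gated cells at 0 h with a Wfdc3 UMI but no Cldn3 UMI reached 2 UMIs of Krt75 and Spink5, while 10 of these 13 held at least 3 UMIs of the outer bulge genes Cd34, Krt24, Postn and Lgr5, which none of the 5 Cldn3-positive cells at 0 h did. At 6 d all 3 cells with Wfdc3 but no Cldn3 reached 2 UMIs of Krt75 and Spink5, and 1 of the 6 Cldn3-positive cells held at least 3 UMIs of the outer bulge genes. Of the cells with Wfdc3 but no Cldn3, 1 of 6 at 4 h and 1 of 5 at 16 h reached 2 UMIs of the label's markers. At 4 h there was no Cldn3-positive cell, and at 16 h 2 of 6 carried the label's markers, while 2 of these 6 belonged to the Cldn3 or Wfdc3 set.

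In all, 14 cells held Cldn3 together with Krt75 or Spink5 UMIs. Taken alone, Krt75 and Spink5 do not bear out the label inner bulge for most of the others. Krt6a, a keratin of the inner bulge but also of wounded skin, was higher in gated than in outer bulge cells, least so at 4 h. Its levels are given further on, and it was not tested as a check of the label. The outer bulge genes Cd34, Krt24, Postn and Lgr5 were also summed by set. In the Cryab cells they gave 2284 CPM at 0 h and 1083 at 6 d, against 2251 and 1353 in outer bulge cells. At 4 h and 16 h these values were 444 and 290 CPM, against 1445 and 1319. Cldn3 or Wfdc3 cells had 1815, 2461, 900 and 96.2 CPM at 0 h, 4 h, 16 h and 6 d. Bcl2l15 cells had 29.2 at 4 h and 118 at 16 h. Their part in later contrasts was not tested. The cells are therefore called gated cells, Cldn3 or Wfdc3 cells, Bcl2l15 cells and Cryab cells throughout.

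Krt75 was at 471 CPM (348 to 622) in the Cldn3 or Wfdc3 cells of 0 h and 1347 CPM (1050 to 1702) in those of 6 d, with 3 UMIs at 4 h and 2 at 16 h. The Cryab cells held no Krt75 UMI in any library. In outer bulge cells Krt75 was between 0.707 and 6.88 CPM at every time, and the companion layer gate, filled by 24 cells at 6 d, gave 272 CPM. Spink5 was at 3592 CPM in the Cldn3 or Wfdc3 cells of 0 h and 7215 at 6 d, against 36.4 and 7.48 in outer bulge cells and 1737 and 737 in upper follicle suprabasal cells, so Spink5 was shared with the latter.

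Fgf18, the ligand that holds the bulge at rest, was at 403 CPM in the Cldn3 or Wfdc3 cells of 0 h (291 to 545) and 352 CPM (169 to 647) in those of 4 h. It gave 1 UMI at 16 h and 1 UMI at 6 d in these cells, and the single such cell of 4 d held 9 UMIs. All 42 Fgf18 UMIs of the gated cells at 0 h were in this set, where outer bulge cells had 40.1 CPM. Bmp6, the other resting signal named above, was near its limit of detection in gated cells, with 2 UMIs at 0 h, 5 at 4 h, 7 at 16 h and 1 at 6 d. Bmp2, a further ligand of the same family, stood at 250 CPM in the Cldn3 or Wfdc3 cells at 0 h and 289 at 6 d, and at 58.5 and 8.77 in outer bulge cells.

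**Figure D3:**
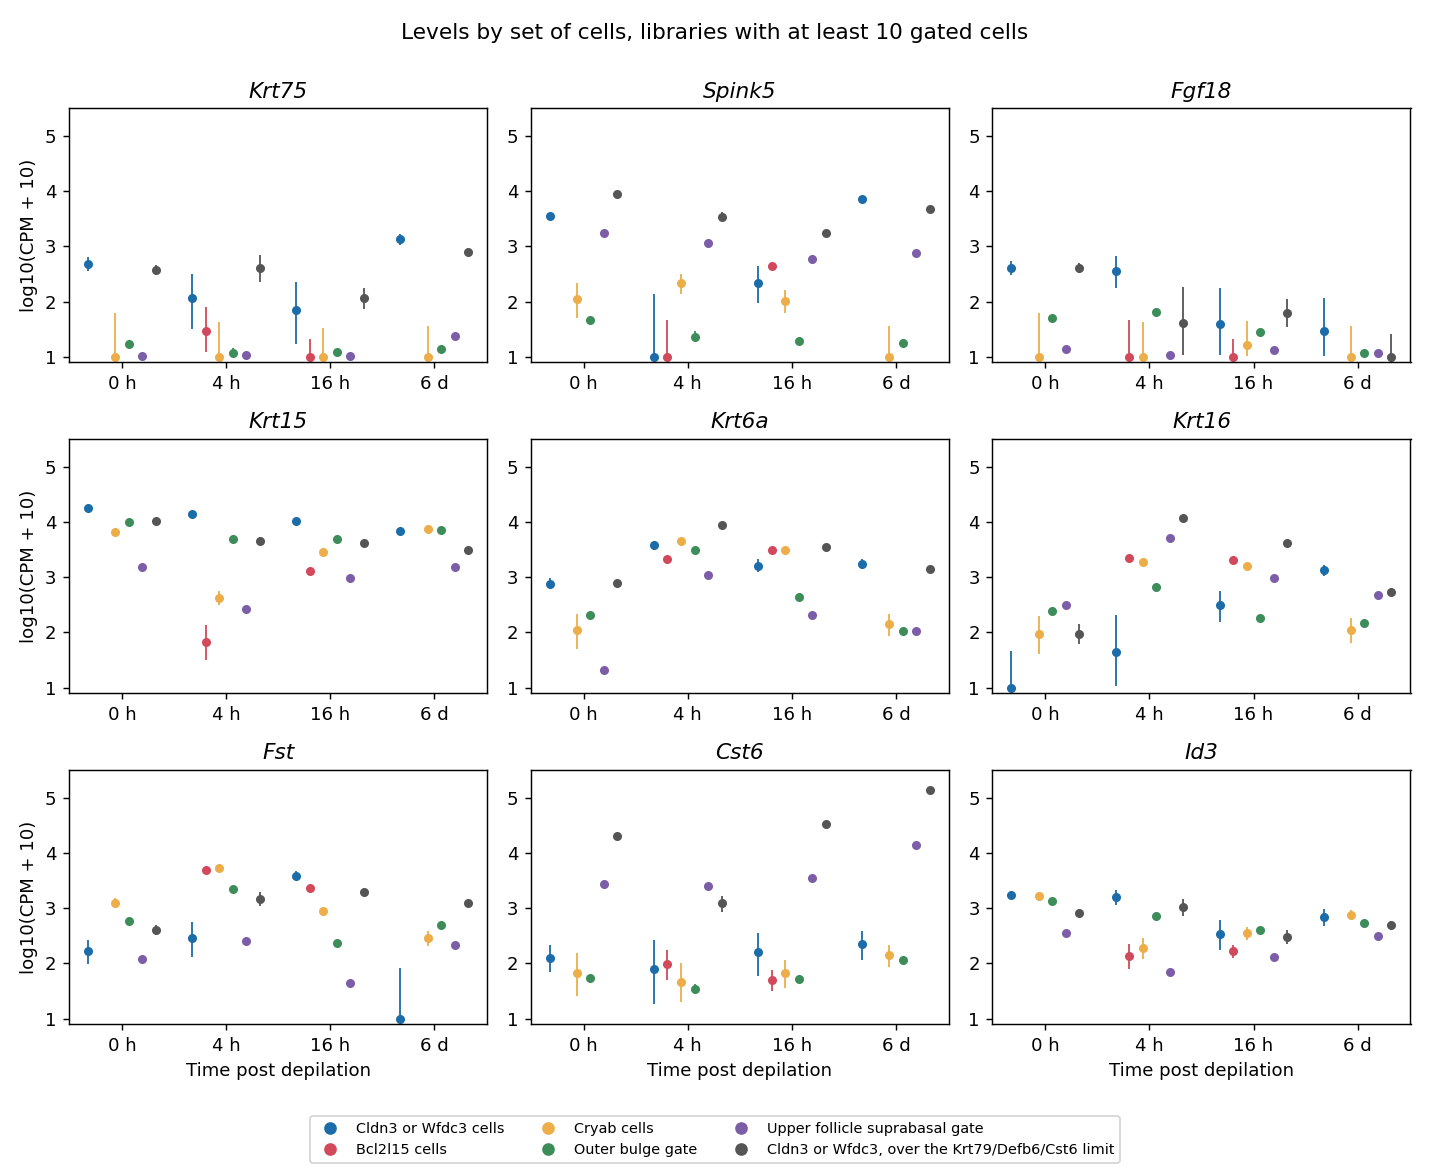
Levels of 9 genes as log10(CPM + 10) (y axis, log scale) at 0 h, 4 h, 16 h and 6 d (x axis) in the sets of gated cells, in the outer bulge and upper follicle suprabasal gates, and in cells that had Cldn3 or Wfdc3 but exceeded the limit on Krt79, Defb6 and Cst6. Points are 1 library each and bars are exact Poisson 95% intervals. Krt75 and Fgf18 at 0 h are high in the Cldn3 or Wfdc3 cells on both sides of that limit, and Fst and Krt16 at 4 h are high in the Bcl2l15 and Cryab cells.

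The rule's limits took out more cells than they left. The positive part was met by 595 barcodes, of which 300 were lost to the limit on Krt79, Defb6 and Cst6 alone, 11 to that on the companion layer genes alone and 102 to 2 or more limits. Of the 300, 113 were Cldn3 or Wfdc3 cells and 103 of these 113 also carried at least 2 UMIs of Krt75 and Spink5. By library the 113 were 20, 6, 15, 7, 35 and 30 cells, against 15, 5, 5, 0, 1 and 9 inside the rule. More cells with the label's markers thus lay outside the rule than inside it. Suprabasal cells of the upper follicle also carry these markers. Whether the cells outside belong to the inner bulge or to the upper follicle was not tested. How many of these cells Cst6, a cystatin protease inhibitor of the upper follicle, took out by itself was not tested. Cst6 ran from 1200 CPM at 4 h to 210709 CPM at 4 d in them, with 20168 CPM at 0 h and 135383 at 6 d. Cst6 by itself stood at 115 and 212 CPM in the Cldn3 or Wfdc3 cells inside the rule at 0 h and 6 d. At 0 h the cells outside had 367 CPM of Krt75 and 394 CPM of Fgf18, both within the intervals of the cells inside. At 6 d they had 767 CPM of Krt75, below the interval of the cells inside. The summed level of Cd34, Krt24, Postn and Lgr5 was 13.4 CPM in them at 0 h, against 1815 in the Cldn3 or Wfdc3 cells inside the rule.

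At the threshold itself, 50 gated cells held exactly 4 gate UMIs and 69 barcodes that met every other condition held 3. There were 27 gated cells with 2 UMIs of Krt79, Defb6 and Cst6, and 25 cells just outside with 3. The median number of gate UMIs was 4 at 0 h, 7 at 4 h, 9 at 16 h and 5 at 6 d.

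At least 3 UMIs of the basal keratins Krt5, Krt14 and Krt15 were present in 178 of 182 gated cells (97.8%), beside 99.9% of outer bulge cells and 37.1% of barcodes with T cell UMIs, which should lack them. At a stricter limit, 1% of a cell's UMIs, the shares were 59.3%, 91.1% and 10.8%. The median share of UMIs was lower in gated than in outer bulge cells at 4 h, at 1.16% against 2.61%, and at 16 h, at 1.01% against 3.03%, but not at 6 d, at 1.87% against 1.75%. Of the 4 cells under 3 UMIs, both those at 4 d were rich in skeletal muscle transcripts, a list added after the values were seen. In 1 of them, 2581 UMIs or 26.2% of its total came from Acta1, Ckm, Tnnc2, Mylpf, Tnni2, Tnnt3, Myl1 and Des, and it held 36 of the 69 Cryab UMIs of that library. In the other 325 UMIs did, or 22.2%. Without the 2 cells Cryab at 4 d was 798 CPM in place of 1488. Muscle also makes Cryab, and its transcripts were between 0 and 26.2 CPM in the gated cells of the other libraries.

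A cell at 4 h held 322 UMIs of the Langerhans cell genes Cd207, Cd74, H2-Aa and H2-Ab1 beside 49 UMIs of Krt14, and raised this list to 1387 CPM in the gated cells of 4 h, with Cd74 as its most abundant gene (177 UMIs). In the other libraries the list was at 28.7 CPM or below, with all 4 genes at 0 in the single cell of 2 d. T cell genes gave 4 UMIs in all, with Cd3e, Cd3d and Nkg7 at 0 in every library. Fibroblast genes gave 6 UMIs, with Col3a1, Dcn and Lum at 0, and endothelial genes 1. Sebaceous genes reached 3 UMIs in 26 gated cells (181 UMIs in all) and interfollicular suprabasal genes in 32 cells (310 UMIs, with Krt10 the most abundant). The inner root sheath list gave 6 UMIs and melanocyte genes 4.

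Against the 0 h library, the gated cells of 4 h and 16 h differed at many genes. With a ratio of at least 2 on the scale of (CPM + 20) as the limit, among genes with at least 100 CPM in either library, 24.7% of 1842 genes were higher and 16.5% lower at 4 h. At 16 h 19.6% of 1747 genes were higher and 16.7% lower, and at 6 d 8.10% of 1605 genes were higher and 7.91% lower. Each is a contrast of 1 library with 1 library and carries no test, and all share the 0 h library. Of the 1842 genes at 4 h, 380 reached 100 CPM at 0 h alone and could only come out lower, and 545 reached it at 4 h alone and could only come out higher, so the counts over lists are a description. Where they differ, the counts under a filter of at least 100 CPM on average over the 4 libraries (the mean filter) are given too. Since the sets made up different shares of the cells at each time, a change of level within cells and a change in the mix of cells cannot be told apart in these sums. Values of the sets are given for some genes, but not for the lists.

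Stress keratins separated the sets and the times. Krt6a, the keratin of the inner bulge and of wounded skin, was at 494 CPM in the gated cells at 0 h, 3376 at 4 h, 3014 at 16 h and 572 at 6 d, and at 200, 3040, 431 and 94.1 CPM in outer bulge cells. Krt16, a keratin of activated epidermis, was at 34.5, 1830, 1811 and 436 CPM in the gated cells and at 239, 647, 172 and 136 in outer bulge cells. At 16 h the Bcl2l15 cells had 2079 CPM and the Cryab cells 1574 CPM of Krt16, against 300 in the Cldn3 or Wfdc3 cells. Krt6a was less uneven at 4 h, with 3762 CPM in the Cldn3 or Wfdc3 cells, 2120 in the Bcl2l15 cells and 4427 in the Cryab cells.

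Krt15, the bulge keratin, ran the other way. It was at 13183 CPM at 0 h, 1846 at 4 h, 2335 at 16 h and 7171 at 6 d in the gated cells. In the Cldn3 or Wfdc3 cells it was 17575, 13959, 10413 and 6792 CPM at these times, while the Bcl2l15 cells had 58.3 at 4 h and 1266 at 16 h. In outer bulge cells it was 9885, 4982, 4987 and 7212 CPM. The outer bulge genes Cd34, Krt24, Postn and Lgr5, which the gate did not limit, were likewise highest at 0 h in the gated cells, at 2004 CPM summed at 0 h, 505 at 4 h, 220 at 16 h and 814 at 6 d, against 2251, 1445, 1319 and 1353 CPM in outer bulge cells. Their part in the Krt15 levels was not tested. Of the 9 keratins tested at 4 h, 4 were at least 2-fold higher and 4 lower, beside 24.7% and 16.5% of all genes tested, with a median log2 ratio of -0.54 beside 0.26. Of the 9, 3 passed through 0 h alone, and the mean filter gave 4 higher and 3 lower of 8 with a median of 0.30, so the sign of the median depended on the filter.

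Fst, which encodes the activin and BMP antagonist follistatin, was among the genes with the widest range. It stood at 591 CPM at 0 h, 4521 at 4 h, 1961 at 16 h and 199 at 6 d in gated cells. Both the Bcl2l15 cells (4940 CPM) and the Cryab cells (5209 CPM) carried it at 4 h, against 281 in the 5 Cldn3 or Wfdc3 cells. At 16 h the latter set had 3871 CPM, also from 5 cells. Outer bulge cells had 568, 2219, 221 and 488 CPM of Fst, so the 4 h level was high in both gates and the 16 h level in the gated cells alone. At least 5 UMIs of Fst were found in 82 of the 182 gated cells, 41 of them at 16 h and 29 at 4 h.

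Serpinb2, a protease inhibitor of stressed keratinocytes, was at 235 CPM at 0 h, 3134 at 4 h, 3116 at 16 h and 661 at 6 d, and Tm4sf1, a membrane protein of the tetraspanin-like type, at 51.7, 1149, 454 and 110 CPM. In outer bulge cells Serpinb2 was at 241, 1190, 412 and 88.7 CPM and Tm4sf1 at 27.0, 282, 30.2 and 10.3. Both genes were low in the 5 Cldn3 or Wfdc3 cells of 4 h, with no UMI of either. At 16 h Serpinb2 was at 3955 CPM in the Bcl2l15 cells, 1846 in the Cryab cells and 960 in the Cldn3 or Wfdc3 cells.

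Among signals linked to bulge quiescence, several named genes were highest at 0 h in the gated cells, as were the summed outer bulge genes given above, whose part in this was not tested. Of the 17 genes of this list 11 were tested, but 8 of them at 4 h and at 16 h and 3 at 6 d passed the filter through 0 h alone, so nothing is drawn from their count. With the mean filter, which a gene high at 0 h alone can still pass, 6 of 7 were lower and 1 higher at each of the 3 later times. Over all 1359 genes passing that filter 12.4% were lower and 21.9% higher at 4 h. At 16 h 11.6% were lower and 19.2% higher, and at 6 d 5.08% and 6.84%. Id3, a target of BMP signalling, was at 1671 CPM at 0 h, 316 at 4 h, 222 at 16 h and 724 at 6 d in gated cells. Id1, from the same family, was at 1573, 529, 232 and 735 CPM. Timp3, an inhibitor of matrix proteases, was at 603, 65.6, 45.6 and 289 CPM. The sets differed at 4 h. Id3 was at 1547 CPM in the Cldn3 or Wfdc3 cells, 126 in the Bcl2l15 cells and 178 in the Cryab cells. Id1 was at 2532, 126 and 391 CPM. The Cldn3 or Wfdc3 set of 4 h was 5 cells with no Cldn3 UMI, of which 4 held at least 3 UMIs of the outer bulge genes. Those genes summed to 2461 CPM in this set, against 1445 in outer bulge cells. Their part in the differences between sets was not tested. At 0 h Id3 was similar in both sets present, at 1700 CPM in the Cldn3 or Wfdc3 cells and 1628 in the Cryab cells. The gene of this list that was higher at 4 h and 16 h was Fst, which works against the BMP ligands, and at 6 d it was Sfrp1, a Wnt inhibitor, at 155 CPM at 0 h and 866 at 6 d.

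Immediate early genes, which encode transcription factors switched on within minutes of a stimulus or of tissue dissociation, were mostly highest at 0 h. Of 16 tested, 11 were lower and 1, Fosl1, higher by 2-fold at 4 h (median -1.14), beside 16.5% lower and 24.7% higher of all genes tested (median 0.26). At 16 h 14 of 15 were lower (median -1.81), beside 16.7% of all genes (median 0.18). At 6 d 5 of 16 were lower and 1 higher (median -0.75), beside 7.91% and 8.10% of all genes (median 0.07). At 4 h 14 of the 16 reached 100 CPM in both libraries, and the mean filter gave the same numbers of higher and lower genes at all 3 times. Fos was at 10651, 2371, 1659 and 4268 CPM and Atf3 at 6775, 788, 709 and 3633 CPM at 0 h, 4 h, 16 h and 6 d. In outer bulge cells the medians were -0.79, -0.90 and -1.20, with 4, 7 and 12 genes lower. Over all genes tested, outer bulge cells had medians of 0.22, 0.16 and 0.15. Of these genes 7.49%, 6.47% and 6.11% were lower and 16.7%, 6.18% and 4.30% higher. The genes were chosen by their level in gated cells, whose sum at 0 h held 174165 UMIs against 3487538 in outer bulge cells. Here and below, the shares of the gated and outer bulge cells are therefore not like for like. At 4 h Atf3 was at 4430 CPM in the 5 Cldn3 or Wfdc3 cells, 379 in the Bcl2l15 cells and 240 in the Cryab cells. Fos was at 6188, 1780 and 1947 CPM in these sets. The part of dissociation in these levels was not tested.

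Of 13 chaperone genes tested at 6 d, 5 were at least 2-fold higher than at 0 h and none lower (median 0.69), beside 8.10% and 7.91% of all genes tested (median 0.07). Outer bulge cells gave 3 higher and 1 lower of 13 (median 0.21), beside 4.30% and 6.11% of all genes (median 0.15). At 4 h 2 of 12 were higher and 4 lower (median 0.07), beside 24.7% and 16.5% of all genes tested. At 16 h 2 of 12 were higher and 3 lower (median -0.30), beside 19.6% and 16.7%. The mean filter gave 3 higher and 4 lower of 13 at 4 h, then 3 and 3 of 13 at 16 h. Hspa1a, an inducible Hsp70, was at 235, 98.5, 156 and 2231 CPM in the gated cells and at 257, 87.4, 96.1 and 1036 in outer bulge cells. At 6 d its 425 UMIs were spread over 24 of 33 cells, with 82 in 1 cell. It was at 2657 CPM in the Cryab cells and 1097 in the Cldn3 or Wfdc3 cells. Hspb1, a small heat shock protein as Cryab is, was at 7194, 6481, 2069 and 7523 CPM in gated cells.

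**Figure D4:**
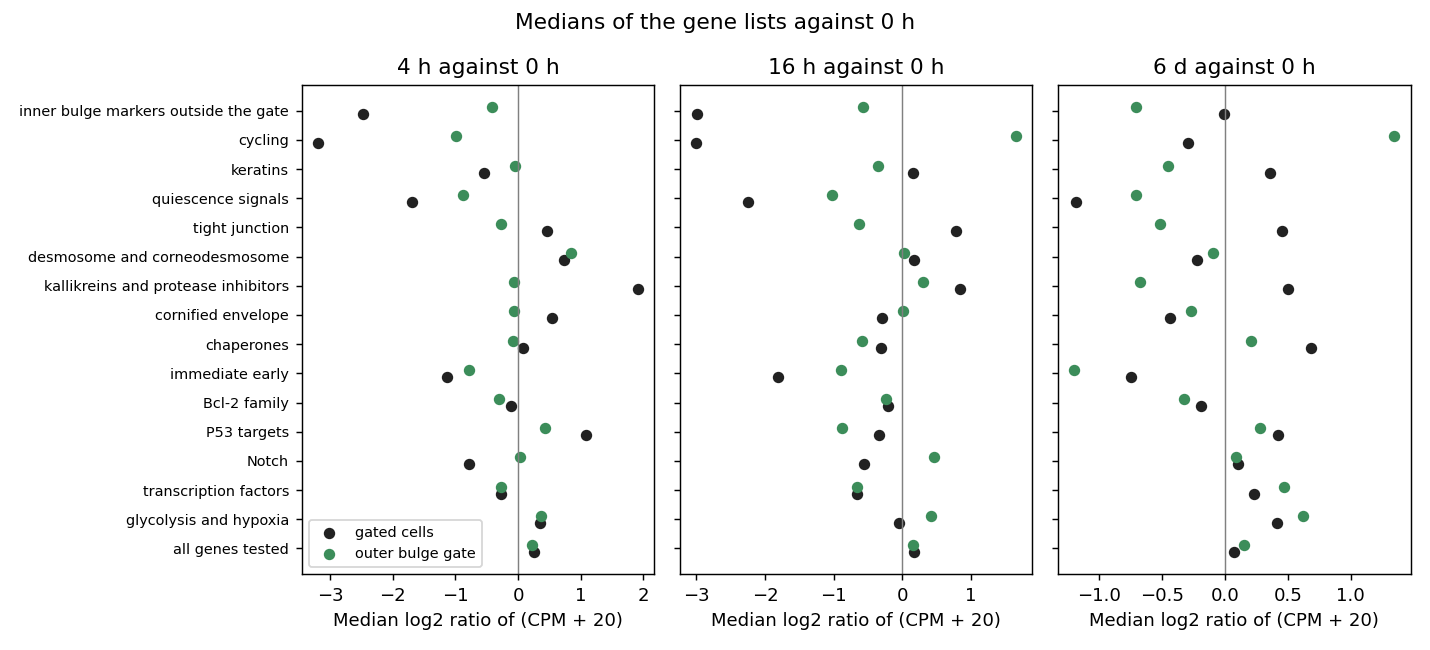
Median log2 ratio of (CPM + 20) against 0 h (x axis) for each gene list with at least 3 genes tested (y axis), at 4 h, 16 h and 6 d, in gated cells and in outer bulge cells over the same genes, with x axes that differ between the panels. Immediate early genes lie below 0 in both groups at all 3 times. Quiescence signals do too, but most of their tested genes at 4 h and 16 h (8 of 11) passed the filter through 0 h alone. So did most of the cycling list (4 of 4, then 3 of 4) and of the inner bulge markers outside the gate (5 of 6, then 4 of 6).

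Few junction and barrier genes could be tested. Of 5 tight junction genes tested 2 were higher and none lower at 4 h, and 2 higher and 1 lower at 16 h (medians 0.46 and 0.79), beside 24.7% and 16.5% of all genes at 4 h and 19.6% and 16.7% at 16 h. At both times 3 of the 5 passed through the later library alone, and the mean filter gave 1 higher and none lower of 4 at 4 h (median 0.16) and 2 higher and 1 lower of 4 at 16 h. Cldn1 was at 74.6, 455, 458 and 210 CPM at 0 h, 4 h, 16 h and 6 d, and Cldn4 at 68.9, 103, 399 and 105. Cldn4 was at 14.6, 8.64, 2.44 and 2.84 CPM in outer bulge cells. Of 10 desmosome genes tested at 4 h, 3 were higher and 1 lower (median 0.74), beside 24.7% and 16.5% of all genes, and in outer bulge cells the median was 0.84 beside 0.22 over all genes. The mean filter gave 2 higher and none lower of 7. At 16 h 2 of 8 were higher and none lower (median 0.18). Perp, a desmosomal P53 target, stood between 1864 and 2578 CPM in the 4 libraries. Among kallikreins and protease inhibitors 4 of 7 were higher and 2 lower at 4 h (median 1.91), beside the same 24.7% and 16.5%, with Serpinb2 highest and Spink5 lowest. The mean filter gave 3 higher and 2 lower of 6 (median 0.90). Klk7, which cleaves the corneodesmosome, was at 127 CPM at 4 h and 47.5 at 16 h, with 1 UMI at 0 h and none at 6 d, and 13 and 18 of its UMIs at the middle times were in 1 cell each. The cornified envelope list gave 4 higher and 2 lower of 10 at 4 h (median 0.53), and 1 higher and 3 lower of 9 at 16 h (median -0.29). The mean filter gave 3 higher and none lower of 7 at 4 h, and 1 higher and 1 lower of 7 at 16 h (median -0.058).

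The other lists were mixed, and their counts stand beside 24.7% higher and 16.5% lower of all genes at 4 h and 19.6% higher and 16.7% lower at 16 h. Of the Bcl-2 family genes none of 3 differed by 2-fold at 4 h, and at 16 h 1 of 4 was higher (Bax) and 1 lower (Mcl1). Mcl1, which encodes a survival protein, was at 402, 369, 154 and 262 CPM in the gated cells. At 16 h it was at 390 CPM in the Cldn3 or Wfdc3 cells, 124 in the Bcl2l15 cells and 167 in the Cryab cells. Of 4 P53 targets tested at 4 h, 2 were higher and 1 lower, and with the mean filter 1 of 3 was higher and 1 lower. The higher ones were Phlda3, at 369 CPM at 4 h with a log2 ratio of 1.25 to 0 h, and Aen, with 1 UMI at 0 h and 103 CPM at 4 h. Cdkn1a, which encodes the cell cycle inhibitor p21, was at 557, 1079, 435 and 814 CPM and did not reach 2-fold at 4 h. Of the 3 ERBB genes tested at 4 h, 2 were higher, both of which passed the filter through 4 h alone and did not pass the mean filter. They were the receptor gene Egfr, at 40.2, 148, 93.1 and 94.5 CPM, and the ligand gene Epgn, with 2 UMIs at 0 h, 56 UMIs (230 CPM) at 4 h, 4 UMIs at 16 h and 1 UMI at 6 d. The ligand gene Hbegf, at 408, 640, 171 and 84.0 CPM, did not reach 2-fold at 4 h. At 16 h Hbegf was the only ERBB gene tested and was lower. Of 18 transcription factors tested at 4 h 2 were higher and 6 lower (median -0.28), and with the mean filter none of 13 was higher and 4 lower. Sox9, a bulge regulator, was at 723, 722, 612 and 814 CPM. Of 10 glycolysis and hypoxia genes 2 were higher and none lower at 4 h (median 0.35). At 16 h glycolysis and hypoxia genes gave 2 higher and 3 lower of 10, transcription factors 0 higher and 3 lower of 14, and P53 targets 0 higher and 1 lower of 3. Of the 10 glycolysis and hypoxia genes 4 passed through 0 h alone, and the mean filter gave 2 higher and none lower of 7, so that no lower gene was left. For transcription factors at 16 h it gave 0 higher and 2 lower of 13. Notch genes gave 0 higher and 1 lower of 3 at 4 h, with 1 gene, lower, passing the mean filter, and neither of the 2 cytokine genes tested at 4 h passed 2-fold. At 16 h 1 of 2 was lower, Cxcl14, a chemokine gene, which was at 2337 CPM at 0 h, 1272 at 4 h and 182 at 16 h.

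Cells in cycle were few. After each cell was thinned to 2000 UMIs, at least 2 UMIs of 10 cycling genes were found in 5 of 28 gated cells at 0 h (17.9%, exact Clopper-Pearson interval 6.06 to 36.9) and 0 of 43 at 4 h (0 to 8.22). The 16 h library gave 5 of 66 (7.58%, 2.51 to 16.8) and the 6 d library 4 of 33 (12.1%, 3.40 to 28.2). At 4 d it was 3 of 8. The 4 h count left out 2 cells with fewer UMIs, and the 4 d count 1. Outer bulge cells gave 12.3% (9.52 to 15.4) at 0 h and 3.45% (1.73 to 6.09) at 4 h, then 22.5% (19.5 to 25.7) at 16 h and 21.3% (18.2 to 24.8) at 6 d. The intervals of the gates were apart at 16 h only, where the gated cells lay lower. Without thinning the shares in gated cells were 35.7%, 11.1%, 27.3% and 42.4% at 0 h, 4 h, 16 h and 6 d, beside 46.5%, 13.9%, 58.7% and 45.5% in outer bulge cells. Top2a, a topoisomerase of dividing cells, was at 155 CPM at 0 h, with no UMI at 4 h, 2 UMIs at 16 h and 89.2 CPM at 6 d, while outer bulge cells had 204 CPM at 16 h.

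Outside the gates, 93 genes met the rule for being higher in gated cells than in companion layer, upper follicle suprabasal and outer bulge cells in every library with enough cells, as a description. They were ranked by the smallest log2 ratio to these gates, averaged over the libraries. The first 15 began with Krt75, Tm4sf1, Bmp2 and Hivep3, a zinc finger gene. The 15 went on with Cst3 (cystatin C, a cysteine protease inhibitor), Aspn, H2-Q6, Cpe, Actn1, Cwh43, Slc35e4, Inf2, Hsp90aa1, Foxc1 and Dbndd2. Cst3 was at 4771, 1834, 1248 and 3050 CPM in gated cells, against 1362, 934, 1219 and 847 in outer bulge cells. Aspn, which encodes the matrix protein asporin, owed its place to 0 h, with 253 CPM there and 5.70 to 21.0 CPM at 4 h, 16 h and 6 d. Its 0 h level was 600 CPM in the Cryab cells and 19.2 in the Cldn3 or Wfdc3 cells. Foxc1, a transcription factor active in the follicle, was at 149, 57.4, 101 and 152 CPM, and 64.2, 53.9, 31.5 and 65.0 in outer bulge cells.

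The planned curve over time could not be fitted, as only 4 libraries had at least 10 gated cells, and a linear trend of hours was tested in its place with edgeR. At an FDR of 0.05 it called 0 of 3195 genes (0%), and 49 had an unadjusted p under 0.05. The lowest p-values belonged to Hspa1a, Hspa1b, Crabp2 and Hsph1, with a Benjamini-Hochberg adjusted p of 0.958 by edgeR for each. DESeq2 called 2 genes. With 2 residual degrees of freedom the absence of calls does not show that levels were stable.

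Whether the trend differed from that of other follicle cells was tested in the same libraries with the library as block. Against outer bulge cells 0 of 8408 genes were called (0%), with 244 at an unadjusted p under 0.05. Against upper follicle suprabasal cells 0 of 10735 were called (0%), with 367 at an unadjusted p under 0.05 and a lowest adjusted p of 0.0908 by edgeR. The 5 genes with the largest estimated difference in each direction all had no UMI in at least 1 of the 8 sums, so their sizes are not given. They included Ccl7, a chemokine gene, and Scube2 against outer bulge cells, and Edn2, which encodes endothelin 2, and Awat2 against suprabasal cells.

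Between 6 d and the 3 early libraries, the rule on levels named 10 genes in each direction, again as a description. The later level was higher for Gnmt, Bgn, Ccl7, Tagln, Ifi27l2a, Ckb, Rnase12, Hspa1a, Edn2 and Chd3. Several of these rested on 1 cell. All 20 Tagln UMIs at 6 d came from 1 cell, as did 30 of 37 for Ifi27l2a and 24 of 41 for Ccl7. Bgn, which encodes the matrix proteoglycan biglycan, was broader, with 52 UMIs in 18 of 33 cells at 6 d and none at 0 h, 4 h or 16 h. Chd3, a chromatin remodeller gene, had 21 UMIs in 14 cells.

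The level was lower at 6 d for Itga2, Serpinb11, Nipal1, Baz1b, Fxyd5, Gpr161, Fst, Klk7, Pttg1ip and Pir. Itga2, the alpha 2 integrin that binds collagen, had 8 UMIs at 0 h, 52 at 4 h in 24 of 45 cells, 79 at 16 h in 28 of 66 cells and 1 at 6 d. Pttg1ip had 12 UMIs at 0 h and 4 at 6 d, against 119 UMIs in 37 cells at 4 h, and was found in 42 of 66 cells at 16 h. In Itga2, Pttg1ip, Nipal1 and Gpr161 the 4 h and 16 h libraries were high and the 0 h library, like that of 6 d, held few UMIs.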

How the data were processed

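Libraries were made with the 10x Genomics Chromium 3' kit. Per the labels' processing notes the authors counted reads with Cell Ranger 6.1.2 on build mm10 and deposited the UMI counts of each barcode and gene, not normalized. Cells were filtered on genes and mitochondrial UMIs by the limits in the study's methods, except that the upper limit was 7000 genes for every library, where the study used 6000 or 7000 by sample. Groups are times from the labels. The doublet prediction of the study was not repeated and no doublets were removed here. Instead an alternative left out cells of high UMIs or with UMIs of other cell types. Counts were summed per library and tested with edgeR 4.0.16 (TMM, filterByExpr, robust quasi-likelihood fit, Benjamini-Hochberg FDR 0.05 over all genes) in R 4.3.3, or DESeq2 1.42.0 as an alternative, and the tests were tested on simulated data. The planned spline leaves no residual degrees of freedom with 4 libraries. Genes of the gates were left out of the counts of calls.

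The cells, gene lists and tests were chosen with earlier results of these data known. Named genes were the markers, the 15 highest against 3 other gates (CPM + 5, at least 50 CPM), the 10 largest differences each way in mean log2(CPM + 5) and members of the lists. The rule by time named 2 d, 4 d and 6 d as the later libraries, and was applied to those with at least 10 cells. The study's methods describe different dissociation of resting and growing skin. Which was used at each time is not given in the sources used here. Promoters came from RefSeq. Intervals cover counting error only.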

Additional observations from a re-analysis of the deposited data

How the results depend on the processing

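The share of gated cells depended on how strict the gate was. With at least 6 UMIs making 10 per 10000 it was, in the order of time, 0.0722%, 0.287%, 0.401%, 0%, 0.0161% and 0.121%. With each barcode thinned to 2000 UMIs and 1 gate UMI as the limit it was 3.8%, 3.74%, 3.27%, 2.16%, 2.17% and 2.45%, and the low values of 2 d and 4 d were then close to that of 6 d. Without the limit on Krt79, Defb6 and Cst6, an alternative chosen after seeing the data, it was 0.722%, 0.913%, 2.07%, 0.147%, 0.604% and 0.928%. Leaving out doubtful cells, cells above 6000 genes or the companion layer limit kept every share within its interval. The cycling share without thinning was 11.1% at 4 h, 27.3% at 16 h and 42.4% at 6 d, and with 1 UMI as the limit 50% at 0 h, 18.6% at 4 h, 25.8% at 16 h, 100% in the cell of 2 d and 42.4% at 6 d. Weighting cells equally gave 1936 CPM for Spink5 at 0 h, 2366 at 6 d, and 2217 and 963 CPM for Cryab at 4 h and 16 h. Without cells over 20 Cryab UMIs, chosen after seeing the data, Cryab was 786 CPM at 4 h, 702 at 16 h and 1063 at 6 d. With a filter on the mean level over the 4 libraries, chosen after seeing the data and with fewer genes tested, 298 genes were higher and 169 lower by 2-fold at 4 h in place of 455 and 304. At 16 h 157 were lower in place of 291, and at 6 d 69 in place of 127. The linear trend called 0 genes on the log2 and rank scales, with RLE factors, without the robust option and without doubtful cells. It called 23 without a filter on low counts, 86 with the stricter gate (3 libraries), 1 with the 4 d library of 9 cells added and 2 with DESeq2, all forms chosen after seeing the data. Leaving out each library gave 0 to 62 calls, the most without 0 h. The interaction with outer bulge cells gave 0 to 57 calls on leaving out a library, the most without 6 d, and that with suprabasal cells 0 to 107, the most without 0 h, and 11 without doubtful cells. These fits have 1 residual degree of freedom where a library is left out, and the cause was not tested. The planned splines on other scales and with DESeq2 were not run, as they leave no residual degrees of freedom. No paired analysis was possible because each time point has 1 library. Depth limits every value at 2 d and 4 d, where 1 and 9 cells were found.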
